A study of Mus musculus with 6 samples.

Results

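CpG-dense windows of intermediate methylation were 1 kb stretches of the autosomes in which the typical CpG site was neither nearly free of methyl groups nor nearly full. Windows with at least 10 CpG sites, each read at least 10 times in all 6 libraries, numbered 20588, and 998 of them had a median level from 20% to under 60%. A site's level is the percent of its covering reads that were methylated, averaged over the 6 libraries, and the window's level is the median over its sites. The other dense windows were 16961 below 20% and 2629 at 60% or more. The 998 windows were chosen by this level, measured over all 6 libraries, so it is given as a description and was not tested.

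The libraries came from kidneys of male, wild-type C57BL/6J mice, from cortex and outer medulla. The 6 libraries formed 3 treatments of 2 libraries each. In the first, the left ureter was ligated (unilateral ureteral obstruction, UUO, a model of renal fibrosis) for 7 days and the mice received 1 mg/kg per day of the drug that the labels call 5AZA. In the next, the obstructed mice received saline. The last was sham surgery, which left the ureter open. Sham 1 belonged to the obstruction experiment, whereas sham 2 was labelled as the control of an ischemia/reperfusion experiment with 48 h in its name. The labels do not state whether the libraries of a group came from different mice, so p-values measure the spread between libraries, which may be technical.

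In mammals, CpG-dense DNA is mostly held unmethylated at active or poised promoters, while the sparse CpG sites of the rest of the genome are mostly methylated. A level in between can arise where one parental copy is methylated and the other is not, as at imprinted genes, where cells of a tissue differ, or where a window spans the edge of an unmethylated island. In a tissue with many cell types, a change in the makeup of the tissue and a change within a cell type cannot be told apart from such levels.

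Reduced representation bisulfite sequencing reads fragments made by the enzyme MspI, which cuts at CCGG, so fragments begin and end at that motif. No mm9 genome was used here. Promoters of RefSeq genes, 300 bases each from 250 before to 50 after the gene start in GRCm38.p6, were found on mm9 by the spacing of their CpG sites. Of 32851 promoter sequences 9463 were placed, and 97 of these, of 88 genes, touched an intermediate window. The 6 promoters below are shown because their CpG sites carry the intermediate level over much of their length, 4 at genes known as imprinted or as active in germ cells and the last 2 in windows called between treatments. They are written 5′ to 3′ on the strand of the gene, and capitals mark CpG sites whose mean level over the libraries was 20% to under 80%.
Mcts2: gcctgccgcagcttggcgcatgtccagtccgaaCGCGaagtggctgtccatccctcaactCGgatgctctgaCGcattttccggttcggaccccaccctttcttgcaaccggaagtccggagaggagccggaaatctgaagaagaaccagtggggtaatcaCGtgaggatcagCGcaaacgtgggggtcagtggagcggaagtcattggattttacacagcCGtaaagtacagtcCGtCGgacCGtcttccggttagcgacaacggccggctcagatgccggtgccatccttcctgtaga
Plagl1: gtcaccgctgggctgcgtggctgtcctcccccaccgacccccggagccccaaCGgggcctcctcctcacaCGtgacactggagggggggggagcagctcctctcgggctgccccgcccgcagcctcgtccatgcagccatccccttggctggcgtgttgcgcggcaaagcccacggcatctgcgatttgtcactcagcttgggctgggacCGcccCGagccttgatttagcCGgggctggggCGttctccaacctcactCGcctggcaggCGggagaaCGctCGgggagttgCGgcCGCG
Igf2r: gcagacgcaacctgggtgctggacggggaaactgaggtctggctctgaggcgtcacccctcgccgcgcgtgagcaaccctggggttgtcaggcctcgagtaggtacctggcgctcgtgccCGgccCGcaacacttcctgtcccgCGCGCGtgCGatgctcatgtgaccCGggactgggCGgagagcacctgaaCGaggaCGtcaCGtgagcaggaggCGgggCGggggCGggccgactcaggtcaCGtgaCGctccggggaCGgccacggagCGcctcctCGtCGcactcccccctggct
Boll: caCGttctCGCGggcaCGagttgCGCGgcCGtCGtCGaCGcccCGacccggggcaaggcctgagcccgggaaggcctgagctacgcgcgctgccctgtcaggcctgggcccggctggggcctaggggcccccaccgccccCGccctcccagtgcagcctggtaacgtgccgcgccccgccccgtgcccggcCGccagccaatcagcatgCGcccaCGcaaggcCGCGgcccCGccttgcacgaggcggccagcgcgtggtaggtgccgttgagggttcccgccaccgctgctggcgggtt
4933428G20Rik: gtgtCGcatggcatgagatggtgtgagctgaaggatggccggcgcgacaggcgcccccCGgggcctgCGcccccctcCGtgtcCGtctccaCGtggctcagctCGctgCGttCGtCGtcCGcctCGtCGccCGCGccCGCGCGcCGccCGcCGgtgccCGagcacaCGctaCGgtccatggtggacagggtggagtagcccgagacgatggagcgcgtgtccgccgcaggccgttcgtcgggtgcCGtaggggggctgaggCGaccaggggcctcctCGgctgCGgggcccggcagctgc
Gm13205: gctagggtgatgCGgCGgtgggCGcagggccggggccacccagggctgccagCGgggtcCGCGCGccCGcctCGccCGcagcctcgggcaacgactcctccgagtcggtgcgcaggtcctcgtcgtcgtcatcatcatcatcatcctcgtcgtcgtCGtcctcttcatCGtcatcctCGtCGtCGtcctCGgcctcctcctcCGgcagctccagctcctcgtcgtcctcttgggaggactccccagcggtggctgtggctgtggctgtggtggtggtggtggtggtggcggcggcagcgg
Their mm9 positions are chr2:152512634-152512933 on the plus strand for Mcts2, chr10:12810388-12810687 on the plus strand for Plagl1 and chr17:12962523-12962822 on the minus strand for Igf2r. Boll lies at chr1:55419523-55419822, 4933428G20Rik at chr11:97361605-97361904 and Gm13205 at chr4:148326382-148326681, all on the minus strand. Mcts2 has 10 capital sites and Plagl1 has 13. Igf2r has 20, Boll 18, 4933428G20Rik 28 and Gm13205 17. Sites in lower case were either outside that range or not read deeply enough.

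Intermediate windows held fewer covered CpG sites than low ones, and their full CpG content was not measured. Their median was 13 sites, against 24 in windows below 20% and 12 in windows of 60% or more, and 204 of them had at least 20. Levels filled the range without a gap: 329 windows lay from 20% to under 30%, 249 in the next step of 10 points, 202 from 40% and 218 from 50%. The bounds cut through a continuous range. The 3 windows just inside the lower bound lay between 20.046% and 20.048%, and the 3 just outside between 19.986% and 19.999%. At the upper bound the 3 highest inside lay between 59.665% and 59.798%, and the 3 just outside between 60.051% and 60.207%.

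**Figure D1:**
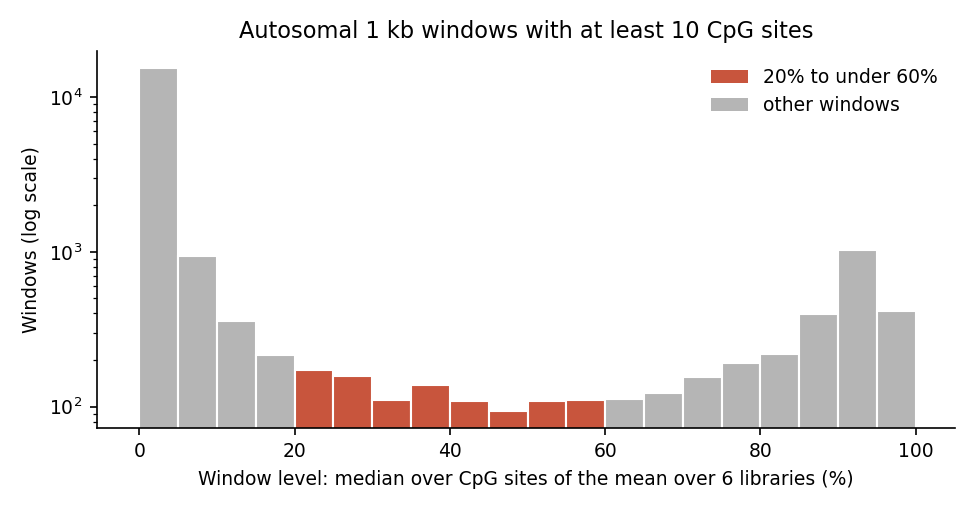
Number of autosomal windows with at least 10 CpG sites (log scale) by window level in steps of 5 points, with the 998 intermediate windows in red and the others in grey. Most windows stand at the 2 ends of the scale, and the intermediate range is a low floor between them.

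A mid-range window can be built from mid-range sites or from a mixture of extremes. Of 16401 CpG sites in the 998 windows, 10044 (61.2%) were themselves at 20% to under 80%, while 3826 were below 20% and 2531 at 80% or more. The share at 20% to under 80% was 15.3% in the low dense windows and 24.0% in the high ones. Sites inside CCGG are counted in these shares and in the shapes below. In placed promoters below 20% such sites averaged 72.6%, against 2.09% outside, and they could be told apart only within placed promoters. In 250 windows at least 75% of the sites were in that middle range, and these are called uniform here. In 89 windows a single step of at least 40 points between neighbouring stretches took up at least 50% of the variance among sites, and these are called boundary windows. The remaining 659 mixed sites of different level along their length and are called interleaved.

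Uniform windows had a median level of 44.9%, boundary windows 37.6% and interleaved windows 32.6%. The steepest boundary was at chr7:52793001-52794000, where the second stretch lay 79.9 points below the first. Both 5AZA libraries (48.7% and 45.7%), both saline libraries (47.5% and 47.2%) and both sham libraries (47.97% and 45.2%) gave nearly the same mean over the sites of that window. From summed reads, in which deeper sites weigh more, saline stood 17.8 points above sham and 5AZA 15.2 points above sham, with edgeR adjusted p of 0.34 and 0.30. A boundary of 56 sites lay at the start of Dazl, an RNA-binding protein of germ cells, at chr17:50432001-50433000. Its step was 76.1 points, with 27 sites below 20% and 24 at 80% or more. The window's mean was 46.3% and 47.1% in the 5AZA libraries, 48.1% and 47.4% in the saline libraries, and 48.2% and 47.0% in the sham libraries. The 5AZA libraries were the lower ones beside saline, with a narrow gap, and the sham libraries overlapped with both other treatments (edgeR adjusted p = 0.73 for 5AZA against saline and 0.98 for saline against sham).

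Most intermediate windows had no measured neighbour on at least one side, so their surroundings were known only in part. By the rule of at least 10 sites, 893 had no intermediate neighbour and 105 formed 48 runs, but only 27 had both neighbours measured at that number of sites. Of these 27, 9 lay between intermediate windows, 6 between low ones and 0 between high ones. Another 4 lay beside a low and an intermediate one, 4 beside a high and an intermediate one and 4 beside a high and a low one. Where both flanking windows held at least 3 measured sites (135 windows), 30 had a high window on one side and a low one on the other, 32 lay beside a high and an intermediate one, 24 between intermediate ones, 20 beside a low and an intermediate one, 18 between high ones and 11 between low ones. By chromosome, the share of dense windows that were intermediate ran from 2.81% on chromosome 3 to 6.72% on chromosome 11, which held 120.

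The longest run had 6 windows, chr17:39980001-39986000, with 355 sites and levels of 20.2% to 23.4%. Its sites were read 3538 to 5915 times on average per library and window, against a median of 55.2 over intermediate windows. The nearest placed gene start, that of Cenpq, lay about 1090500 bp away. Means over the run were 31.2% and 30.5% in the 5AZA libraries, 34.0% and 33.9% in the saline libraries, and 37.2% and 31.1% in the sham libraries. Copy number of this stretch was not measured, and whether its reads come from repeated sequence was not tested.

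Promoters were less frequent in intermediate windows than in low ones, a comparison made without a test. A placed promoter touched 82 of 998 intermediate windows (8.22%), 7285 of 16961 low windows (43.0%) and 49 of 2629 high windows (1.86%). Placement needs at least 8 covered sites with matching spacing, so sparse promoters could not be found. The median distance from an intermediate window to the nearest placed start was 23886 bp. Only 9463 of 32851 promoter sequences were placed, so an unplaced start may lie nearer.

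CpG sites inside CCGG stood far above their neighbours. CCGG reads the same on both strands. It is held by 52.8% of the 32851 promoters, placed or not, and by all 97 that touch an intermediate window. Placement needs at least 8 covered sites in MspI fragments, so these shares cannot be compared. The median was 7 CG per promoter over the 32851, 26 in placed promoters and 20 in those touching an intermediate window. Over all placed promoters, 17932 sites inside CCGG averaged 72.8%, and 99.9% of them were at 30% or more. The 90437 sites outside CCGG averaged 2.65%. Within the placed promoters of intermediate windows, 158 sites inside CCGG averaged 78.4% and 515 sites outside averaged 27.7%. The labels state that fragment ends were filled in with methylated dCTP, and its part in the CCGG levels was not tested.

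Promoters touching an intermediate window were not all intermediate themselves. With CCGG sites included, 42 of the 97 had a median of 20% to under 60%, 32 were below 20%, 1 was above and 22 had under 5 sites. With at least 5 sites outside CCGG, 68 promoters of 64 genes touching an intermediate window could be read. Of these, 40 had a median below 20%, 27 promoters of 25 genes had one of 20% to under 60%, and only Dazl exceeded that, with 96.0%. Among all 7362 placed autosomal promoters with as many sites, 38 had a median of 20% to under 60%. The lowest of the 40 included Nudt1 at 0.5%, whose CCGG sites stood at 71.5%. A promoter covers 300 of the 1000 bases, so its median need not be that of its window.

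Imprinted genes, of which one parental copy is silent, were found among these promoters. Of 41 imprinted genes listed, 13 had a placed promoter, and 6 of these touched an intermediate window: Commd1, Igf2r, Mcts2, Peg12, Plagl1 and Zrsr1. With CCGG sites included, 6 of the 13 had a low promoter, 6 an intermediate one and 1, Fkbp6, a high one. The intermediate ones included Gnas but not Peg12. Of 45 germline genes known to be silenced by promoter methylation, 14 were placed. Dazl and Meioc touched an intermediate window, while 8 of the placed genes, Dazl among them, had a promoter at 60% or more. Of 39 clustered homeobox genes 10 were placed, and only Hoxd12 touched one. No placed promoter of the kidney epithelial genes (8 placed of 37), matrix and myofibroblast genes (7 of 30), blood cell genes (6 of 30) or methylation enzymes and readers (9 of 16) touched one. Of the marker genes of kidney cell types, 1 epithelial and 1 endothelial promoter were placed and neither touched one, so the makeup of the tissue was not checked.

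Mcts2 is a paternally expressed retrogene, and its promoter had a median of 50.3% outside CCGG. Outside CCGG its 10 sites averaged 42.6% and 43.0% in the 5AZA libraries, 57.7% and 55.2% in the saline libraries, and 48.9% and 53.1% in the sham libraries. Both 5AZA libraries lay below all the others, and both saline libraries lay above all the others. The means were 42.8% ± 0.269 in 5AZA, 56.5% ± 1.75 in saline, with 51.0% ± 3.01 in sham (SD, n = 2 each), from 43 to 145 reads per site and library. The capitals in the Mcts2 sequence fall in 3 stretches: near the upstream end, midway to the start and just before it.

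Plagl1 encodes a zinc finger transcription factor expressed from the paternal copy, and Hymai is the RNA transcribed from the same start region. Outside CCGG the 12 Plagl1 sites averaged 26.2% and 33.9% in the 5AZA libraries, 36.1% and 37.6% in the saline libraries, and 26.2% and 20.0% in the sham libraries. The saline libraries were the highest, and the 5AZA and sham libraries met at 26.2%. Igf2r, the receptor that clears insulin-like growth factor 2, is expressed from the maternal copy in mouse. Its 21 sites outside CCGG averaged 25.9% and 21.9% in the 5AZA libraries, 33.2% and 40.4% in the saline libraries, and 23.3% and 13.2% in the sham libraries. Both saline libraries stood above the other 4, but the spread within sham (SD 7.1) was large beside the difference of 18.6 points between saline and sham. The least read site of this promoter had 12 reads in a library.

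Zrsr1 is a paternally expressed retrogene inside Commd1, and the placed promoters of both touch the same window, chr11:22872001-22873000. Zrsr1 had 5 sites outside CCGG, at 41.1% and 43.8% in 5AZA, 49.2% and 47.7% in saline, and 42.5% and 42.0% in sham. Commd1 had 9, at 40.1% and 50.6% in 5AZA, 51.4% and 47.5% in saline, and 45.7% and 57.1% in sham. The saline libraries exceeded the rest at Zrsr1 and overlapped with both other treatments at Commd1.

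For 6 intermediate windows the nearest placed start was that of Gnas, the imprinted gene of a G protein subunit. They lay between chr2:174110001 and chr2:174155000, and 5 of the 6 were uniform. The window 507 bp from the placed start, chr2:174154001-174155000, had 35 sites, 34 of them at 20% to under 80%. It read 32.2% and 39.6% in 5AZA, 52.5% and 45.7% in saline, and 37.5% and 30.0% in sham. Its saline libraries did not overlap with the others, yet its edgeR adjusted p was 0.29 for saline against sham and 0.11 for 5AZA against saline. The window chr2:174123001-174124000 read 62.2% and 67.5% in 5AZA, 67.5% and 65.2% in saline, against 67.2% and 64.1% in sham, so its treatments overlapped.

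The promoters of germ cell genes named here all touched an intermediate window, and they had no common order of the treatments. They do not stand for germ cell genes in general. Of the 14 placed genes on the germline list above, 8 had a high promoter, 2 a low one and only Meioc an intermediate one, CCGG sites included. The rest had under 5 sites and were not classed. Boll, Henmt1 and Rbmxl2 were not on that list. Boll encodes an RNA-binding protein of the Dazl family. Its 18 sites outside CCGG averaged 48.7% and 50.9% in 5AZA, 51.5% and 52.7% in saline, and 45.2% and 48.1% in sham, with narrow gaps between neighbouring values. Meioc, which is needed for meiosis, had 7 sites at 28.2% and 54.98% in 5AZA, 40.7% and 48.1% in saline, and 50.7% and 42.5% in sham, so the 5AZA libraries enclosed all others. Henmt1, the methyltransferase that protects piRNAs, had 22 sites at 19.2% and 21.3% in 5AZA, 27.5% and 31.8% in saline, and 34.5% and 24.1% in sham. There both 5AZA libraries were the lowest. Rbmxl2, an RNA-binding protein of the testis, had its promoter in a run of 3 intermediate windows, chr7:114352001-114355000. Its 12 sites outside CCGG averaged 34.5% and 39.5% in 5AZA, 43.6% and 44.1% in saline, and 38.3% and 34.6% in sham, with the saline libraries above all others.

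**Figure D2:**
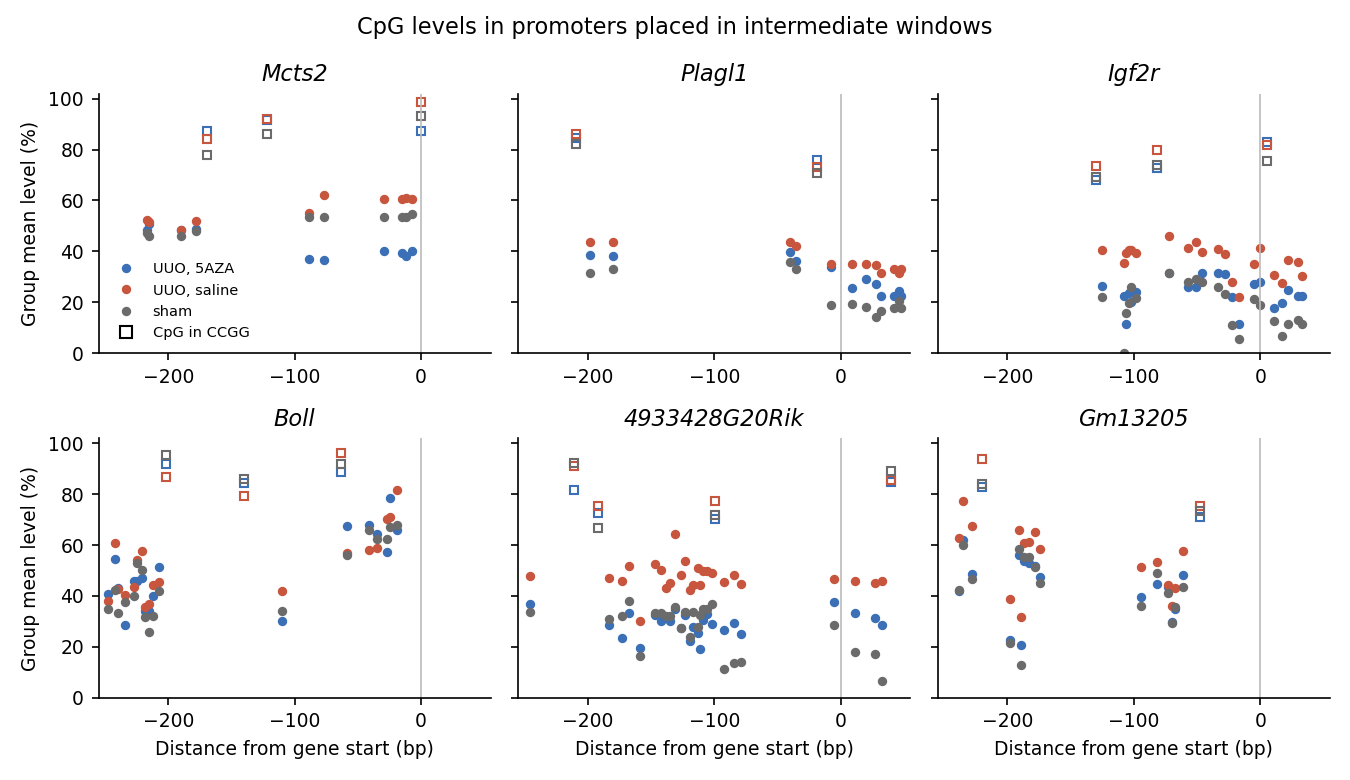
Mean level of each CpG site (percent) in 5AZA, saline and sham by distance from the gene start (bp) for 6 promoters, with sites inside CCGG as open squares. Sites inside CCGG sit high in every promoter, and outside CCGG the saline points lie above most others in Plagl1, Igf2r, 4933428G20Rik and Gm13205. The saline mean over sites outside CCGG was also the highest in Mcts2 and, with narrow gaps, in Boll.

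Over the 998 windows together, the saline libraries had the highest levels. The mean was 43.4% and 43.2% in the 5AZA libraries, 48.02% and 48.07% in the saline libraries, and 44.6% and 41.6% in the sham libraries. Group means were 43.3% ± 0.164 in 5AZA, 48.04% ± 0.0345 in saline, with 43.1% ± 2.15 in sham (SD, n = 2 each). The 5AZA libraries lay between the 2 sham libraries, which differed from each other by far more than the replicates of the other treatments. The 6 libraries lay within 10 points of each other in 492 windows, and were at least 20 points apart in 90. Their median range was 10.1 points, against 2.82 in low and 7.27 in high dense windows.

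**Figure D3:**
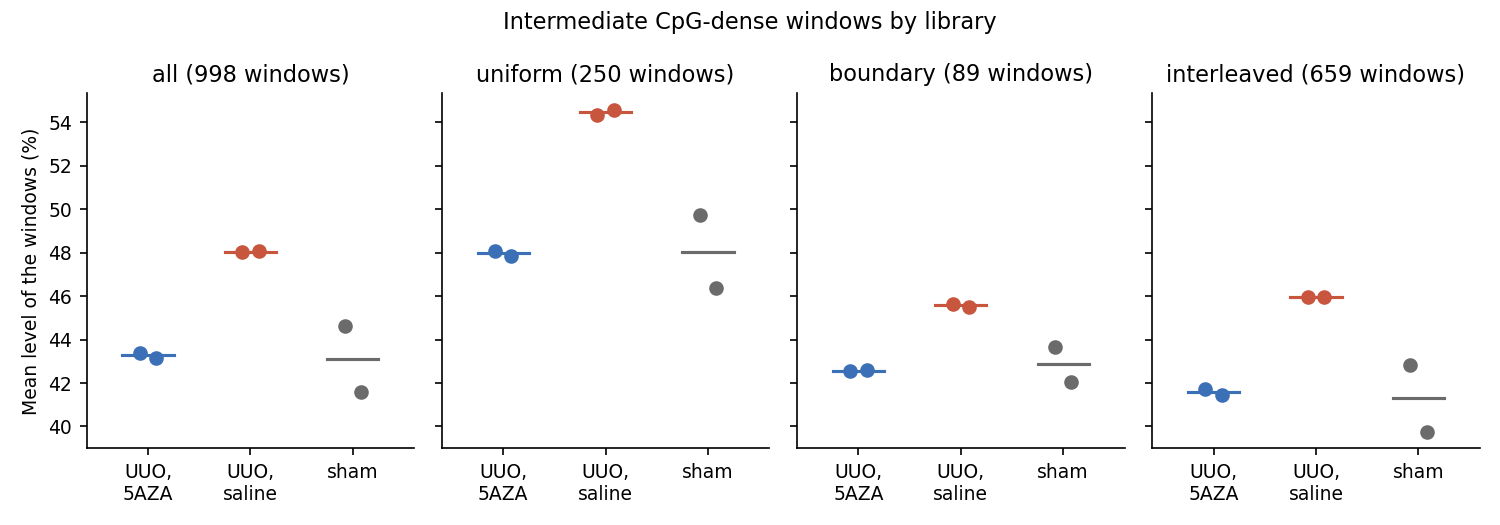
Mean level (percent) of the intermediate windows in each library (points) with the group mean (bar), for all 998 windows and for the 250 uniform, 89 boundary and 659 interleaved ones; the axis starts above 0. The saline libraries are highest in all 4 panels, and the distance to the other treatments is widest in uniform windows.

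Between saline-treated obstruction and sham, the comparison that asks how fibrotic injury changes methylation, 16 of the 998 intermediate windows rose and none fell (edgeR quasi-likelihood test, adjusted p under 0.05). Over all 89813 windows tested 0.0501% were called, 0.0445% higher and 0.00557% lower. Means of the 16 windows were 55.8% ± 0.433 for the saline libraries and 38.1% ± 1.91 for the sham libraries (SD, n = 2 each), with differences of 7.94 to 23.1 points. Of the 16, 11 were uniform, 5 interleaved and 0 boundary windows. At an unadjusted p under 0.05, 343 of the 998 windows were higher and 28 lower, against 8.71% and 1.72% of all windows. Both saline libraries exceeded both sham libraries in 557 windows (55.8%), a share that was 36.3% over all windows and 52.2% in low dense windows. They stayed below both in 63 windows (6.31%), against 8.99% of all windows.

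The number of calls varied with the library left out. Of the 998 windows 0 were called without saline 1 (256 at an unadjusted p under 0.05), 1 without saline 2 and 1 without sham 2, the library of the other injury experiment. Without sham 1 there were 16 calls, 15 higher, of which 8 were among the original 16. In each such fit 1 group is a single library, assumed to vary like the others. The median log2 change in the odds of methylation of the 16 windows was 1.003 to 1.188 in the 4 fits, against 1.04 with all libraries. All 16 stayed higher in saline, but they were picked from these same libraries. In all 16 the saline and sham libraries did not overlap, so the kept direction carries no weight of its own. In the same 998 windows, 5 were called without candidate fragment-end sites, 1 without local coverage maxima and 0 by limma (198 at an unadjusted p under 0.05).

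The mean difference between saline and sham was 4.92 points and the median 4.35, with 816 of 998 windows higher in saline, against 71.8% of all windows. It was 6.42 points in uniform, 4.65 in interleaved and 2.72 in boundary windows. Low dense windows differed by 1.38 points on average and high ones by 1.70. Autosomal windows of the same level with only 3 to 9 sites (5614 windows) differed by 5.36 points, so a difference of this size was also seen in windows with fewer covered sites. Sites inside CCGG in promoters of low level, whose other sites averaged 2.09%, read 73.8% and 74.0% in saline, against 72.8% and 69.0% in sham. Sham 2 was the lowest library there too, and without it the difference over intermediate windows was 3.402 points.

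The widest call was chr5:151239001-151240000, a uniform window of 10 sites. It read 55.2% and 58.8% in saline, against 34.3% and 33.5% in sham (edgeR adjusted p = 0.042). Its nearest placed start was 85196 bp away, so no gene is given for it. At chr12:70321001-70322000 levels were 77.9% and 73.0% in saline, against 52.5% and 53.1% in sham (edgeR adjusted p = 0.027). Its nearest placed start, 7177 bp away, was that of Pole2, a subunit of the replicative DNA polymerase epsilon. An unplaced start may lie nearer, here and at later windows given by distance to a placed start. The neighbouring windows chr11:97361001-97362000 and chr11:97362001-97363000 were both called, and the promoter of 4933428G20Rik lies in the first. That window, with 48 sites, read 52.6% and 52.7% in saline, against 31.4% and 40.6% in sham (edgeR adjusted p = 0.027). The second read 47.6% and 49.1% in saline, against 26.5% and 24.1% in sham (edgeR adjusted p = 0.044). The saline and sham libraries did not overlap in these windows, as in all 16 that were called. For the widest calls this was also a condition for being named.

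The smallest adjusted p, 0.018 by edgeR, was at chr19:7497001-7498000, an interleaved window with 58 sites in a run of 3, 4886 bp from the placed start of 2700081O15Rik. Levels were 44.1% and 40.7% in saline, against 27.4% and 26.2% in sham, from 2661 to 4551 reads per library. At chr10:79616001-79617000, 3574 bp from the placed start of Midn, levels were 49.5% and 53.2% in saline, against 34.3% and 24.9% in sham (edgeR adjusted p = 0.027). The sham libraries differed there by more than the saline ones but stayed below them. The smallest difference among the 16 was at chr7:150645001-150646000, with 32.5% and 34.9% in saline, against 26.4% and 25.2% in sham (edgeR adjusted p = 0.044).

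**Figure D4:**
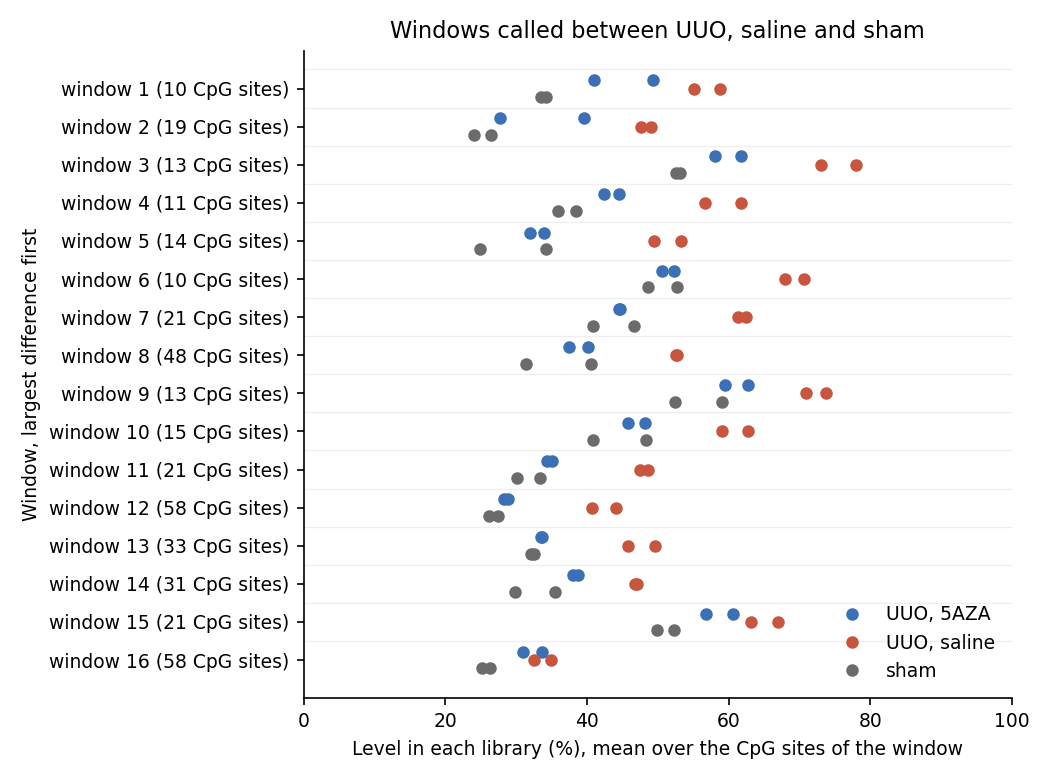
Level (percent, mean over the CpG sites of the window) in each of the 6 libraries for the 16 intermediate windows called between saline and sham, ordered by difference. Both saline points lie right of both sham points in every row, and the 5AZA points mostly lie between them or near sham.

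Between 5AZA-treated and saline-treated obstruction, the comparison that asks what the drug did in the injured kidney, 46 of the 998 windows fell and none rose (edgeR adjusted p under 0.05). Over all windows 1.55% were called lower and 0.00445% higher, and among high dense windows 296 of 2629 (11.3%) were called. The 46 averaged 43.3% ± 0.193 in 5AZA and 57.2% ± 0.761 in saline (SD, n = 2 each), with differences of -9.16 to -21.3 points, and 43.7% ± 1.51 in sham. Of the 46, 28 were uniform, 18 interleaved and 0 boundary windows. In 602 windows (60.3%, against 53.5% of all windows) the 5AZA libraries were both lower than either saline library, and in 30 (3.01%, against 3.82%) both were higher. At an unadjusted p under 0.05, 310 of the 998 windows were lower and 9 higher, against 22.8% and 0.416% of all windows.

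Here too calls were lost when a library was left out. Of the 998 windows 0 were called without saline 1, without saline 2 or without 5AZA 2 (205, 262 and 229 at an unadjusted p under 0.05), and 22 without 5AZA 1. The median log2 change in the odds of the 46 windows was -0.81 to -0.79 in these fits, against -0.81 with all libraries. All 46 stayed lower in 5AZA, but they too were picked from the same libraries, which did not overlap between these treatments. Their kept direction carries no weight of its own. In the same 998 windows, 15 were called without candidate fragment-end sites, 18 with only the 4 libraries of both groups, and 0 without local coverage maxima or by limma (297 and 135 at an unadjusted p under 0.05).

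The mean difference between 5AZA and saline was -4.77 points and the median -3.97, with 131 of 998 windows higher in 5AZA, against 15.8% of all windows. It was -6.50 in uniform, -4.36 in interleaved and -2.997 in boundary windows. It was -4.48 points in high dense windows, -0.54 in low ones, and -5.14 in the windows of the same level with 3 to 9 sites. In CCGG sites of low promoters the same pair of treatments read 72.8% and 73.1% in 5AZA and 73.8% and 74.0% in saline.

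The widest call was chr11:120141001-120142000, with 53.7% and 44.7% in 5AZA and 67.6% and 73.3% in saline (edgeR adjusted p = 0.040). At chr4:139760001-139761000 levels were 33.2% and 27.5% in 5AZA and 48.7% and 53.0% in saline (edgeR adjusted p = 0.033). At chr10:79616001-79617000, the window near Midn, they were 32.0% and 33.9% in 5AZA and 49.5% and 53.2% in saline (edgeR adjusted p = 0.020). The 5AZA and saline libraries did not overlap in these 3 windows, which was a condition for naming them.

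Of the placed promoters, 2 lay in the called windows. The promoter of Gm13205 is in chr4:148326001-148327000, where 57 sites averaged 46.0% and 44.4% in 5AZA and 57.1% and 56.6% in saline (edgeR adjusted p = 0.025). Its 16 promoter sites outside CCGG averaged 43.7% ± 1.15 in 5AZA, 54.7% ± 0.224 in saline, with 42.8% ± 0.524 in sham (SD, n = 2 each). The promoter of 4933428G20Rik is in chr11:97361001-97362000, at 37.5% and 40.2% in 5AZA (edgeR adjusted p = 0.027 against saline). Its 26 sites outside CCGG averaged 26.7% and 31.7% in 5AZA, 47.96% and 46.8% in saline, and 17.0% and 37.7% in sham. The sham libraries were far apart there, one on each side of the 5AZA libraries.

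Another called window had as its nearest placed start that of Hoxa5, a homeobox transcription factor named in the title of the series. Only 10 of 39 clustered homeobox genes were placed, so an unplaced start may lie nearer. A placed promoter of Hoxa5 was itself intermediate, CCGG sites included, without touching an intermediate window. The window, chr6:52127001-52128000, was 26586 bp from the placed start of Hoxa5, and its 13 sites read 35.4% and 31.8% in 5AZA, 44.6% and 45.2% in saline, and 33.1% and 34.4% in sham. Its edgeR adjusted p was 0.0498 for 5AZA against saline and 0.10 for saline against sham. The window was chosen for mention after its values were seen.

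Windows that fell with 5AZA stood in different relations to sham. At chr15:84247001-84248000 levels were 47.8% and 52.0% in 5AZA, 63.2% and 72.4% in saline, and 69.5% and 72.6% in sham. It was called between 5AZA and saline (edgeR adjusted p = 0.044) and not between saline and sham (0.98) or 5AZA and sham (0.13). At chr17:47952001-47953000, in contrast, levels were 50.6% and 52.4% in 5AZA, 68.0% and 70.6% in saline, and 52.8% and 48.7% in sham. Both comparisons with saline were called (edgeR adjusted p = 0.025 for 5AZA against saline and 0.042 for saline against sham). In total 11 windows were called in both, 68.75% of the 16 and 23.9% of the 46. Both comparisons use the same saline libraries, so these shares carry no weight of their own.

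Promoter sites outside CCGG in the intermediate windows were likewise highest in the saline libraries. Over all 515 such sites the mean was 24.4% and 26.7% in 5AZA, 31.0% and 31.2% in saline, and 26.9% and 26.1% in sham. Over the 27 promoters with a median of 20% to under 60% outside CCGG, the mean difference was -7.51 points for 5AZA minus saline, with 3 promoters higher in 5AZA. For saline minus sham it was 4.62 points, with 19 promoters higher in saline. The 5AZA and saline libraries were fully apart in 16 of the 27, all with 5AZA lower, and the saline and sham libraries in 15, with saline higher in 12 and lower in 3. Over all windows, as given above, 53.5% had both 5AZA libraries lower than saline and 36.3% both saline libraries higher than sham, so these counts are not set apart from the background.

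Between 5AZA-treated obstruction and sham, edgeR called 0 of the 998 windows, against 0.00111% of all windows. At an unadjusted p under 0.05, 59 of the 998 windows were higher and 43 lower, against 1.43% and 13.3% of all windows. Higher windows were thus more frequent here than over all windows, and lower ones rarer. By limma 0 were called too, with 22 windows at that unadjusted level. The mean difference was 0.146 points. It depended on the sham library, being 1.66 points without sham 1 and -1.37 points without sham 2. Leaving out sham 2 gave 2 windows called lower, and leaving out 5AZA 1 gave 1. Both 5AZA libraries lay above both sham libraries in 183 windows (18.3%, against 13.2% of all windows) and below them in 178 (17.8%, against 32.2%). High dense windows, in contrast, were lower in 5AZA by 2.78 points on average.

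The smallest adjusted p for 5AZA against sham, 0.096 by edgeR, was in the deeply read run on chromosome 17, at chr17:39984001-39985000. Levels there were 34.5% and 34.5% in 5AZA and 38.7% and 38.5% in sham, from 72607 to 146922 reads per library. At chr15:84247001-84248000 the 5AZA libraries lay 21.2 points below sham on average, from 154 to 432 reads per library. The wider difference had the fewer reads behind it.

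**Figure D5:**
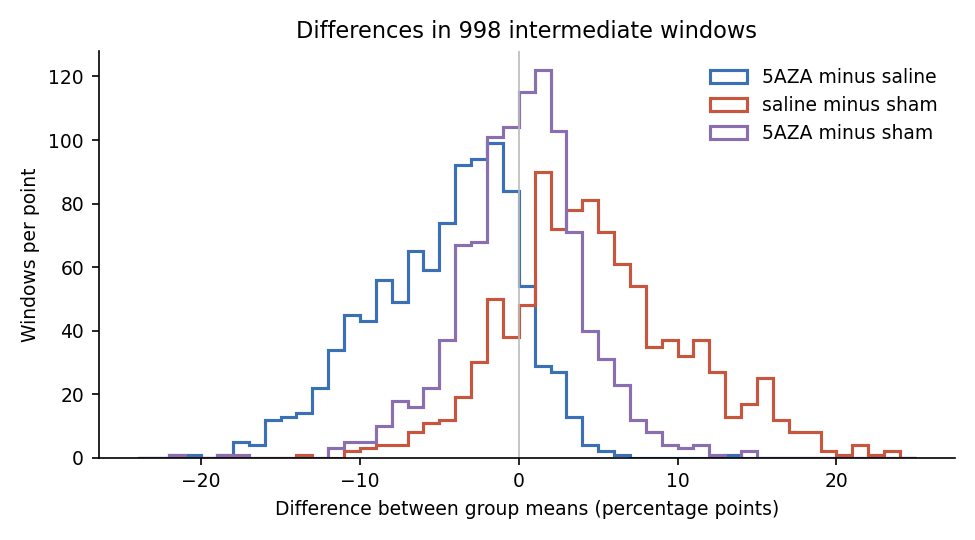
Number of intermediate windows (998 in all) by difference between group means, in steps of 1 percentage point, for 5AZA minus saline, saline minus sham and 5AZA minus sham. The curves for 5AZA minus saline and saline minus sham lean to opposite sides of 0 and share the saline libraries, and the curve for 5AZA minus sham is centred near 0, with a mean of 0.146 points.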

How the data were processed

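Reduced representation bisulfite libraries were made with MspI and inserts of 40 to 120 and 120 to 220 bp, per the labels' protocols. The authors deposited, for each CpG site, counts of covering and methylated reads and the fraction of both. The submitters' processing notes name Bowtie and mm9; how reads were trimmed and filtered and how methylation was called is not stated in the sources used here. Reads are not molecules, as no molecular identifiers are described, so depth covers counting error only. Covering reads summed to 57853745 and 64539660 in 5AZA, 76730132 and 65733691 in saline, and 68501854 and 37728517 in sham.

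Libraries were grouped by the treatment label. Of 2134823 sites, 943307 had at least 10 reads in all 6 libraries. A window's level in a library is the mean over its sites. Methylated and unmethylated counts summed over all 89813 windows of 1000 bp with at least 3 sites entered the quasi-likelihood test of edgeR 4.0.16 under R 4.3.3 (an intercept per library, a group effect on methylated counts, 1 common dispersion over all 6 libraries), with Benjamini-Hochberg adjustment over all windows. Promoter sequences were placed on mm9 where the spacing of their covered CpG sites matched once, and 9481 of 9503 such matches (99.77%) were on the chromosome that RefSeq gives. No position was converted between builds, and chromosome 18 had no promoter in the table.

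Named windows are, first, the 5 largest differences among those called whose libraries did not overlap between the groups. Next come the smallest p, the most uniform, the largest steps and the most sites. Members, lists and rules were chosen with earlier results of these data known. Alternatives were coverage minimums of 5 and 20, omission of candidate fragment-end sites (coverage within 5% of the sum of both neighbours within 220 bp, each at least 10% of it) or of the most deeply covered 0.1% of sites, windows moved by 500 bp, at least 15 sites, bounds of 25 and 55%, the mean in place of the median, summed reads, limma 3.58.1 on log2 ratios, only the 4 libraries compared, a difference of at least 10 points, a replicate block, and each library left out. Omission of local coverage maxima (sites read more than both neighbours) was chosen after the data were seen, as were the counts over the same 998 windows under each setting. Same-numbered saline and 5AZA libraries did not deviate together (correlation -0.015), so the numbers were not used as pairs. Python 3.11.15 was used with numpy 2.4.6 and pandas 2.3.3 for the tables and matplotlib 3.10.9 for the plots.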

Additional observations from a re-analysis of the deposited data

How the results depend on the processing

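Calls were few and depended on the settings. With the windows chosen anew under each setting, a coverage minimum of 20 gave 8 for saline against sham and 26 for 5AZA against saline, omission of candidate fragment-end sites 3 and 13 in 779 windows, and omission of local coverage maxima 0 and 0 in 580. In the windows as first chosen these settings gave 10 and 30, 5 and 15, and 1 and 0, and limma 0 and 0. With only the 4 libraries compared, 5AZA against saline gave 18. With the replicate block it gave 261, of which 254 were lower. Same-numbered libraries did not deviate together (correlation -0.015), but whether they were paired is not known. Leaving out 1 library gave 0 to 16 calls for saline against sham, 0 to 22 for 5AZA against saline and 0 to 2 for 5AZA against sham.

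The 5AZA minus saline difference was -4.497 points at a coverage minimum of 20, -5.233 without candidate ends, -5.462 without local maxima, -4.626 with windows moved by 500 bp, -4.23 with at least 15 sites, -4.918 with bounds of 25 and 55%, -1.811 with the mean over sites and -4.07 from summed reads. The saline minus sham difference was 2.536 with the mean over sites. Leaving out 1 library gave -4.89 to -4.657, 3.402 to 6.437, and -1.371 to 1.664 for 5AZA minus sham.

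The number of windows was 657 at a coverage minimum of 20, 580 without local maxima, 399 with at least 15 sites and 5059 with the mean over sites, 939 of which were in the main set. The share of uniform windows was 34.53% without candidate ends, 44.31% without local maxima, 28.57% with at least 15 sites, 29.43% with the narrower bounds and 4.764% with the mean over sites. The cause of these shifts was not tested, beyond the fewer sites, windows or libraries that a setting leaves. The 16 and 46 windows kept their direction in every fit that held them, including limma and each library left out, and 43 of the 46 could be tested at a coverage minimum of 20. They had been picked from the same libraries, without overlap between the groups, so this kept direction is no separate support. Other windows were called the other way: 1 lower in saline without sham 1, and 7 higher in 5AZA with the block. Of 110 values of the 10 named windows of saline against sham 61 lost the call, and of 119 values for 5AZA against saline 57 did. A library group of 2 and sites of 10 reads limit what could be detected.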
